A study of Mus musculus with 24 samples.

Results

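The liver and the hypothalamus of untreated obese-diabetic mice were compared in 12 of the 24 arrays of the series. Members were chosen by their labels alone: every array whose mouse had received a vehicle, that is 6 liver arrays and 6 hypothalamus arrays, each 3 with regular vehicle and 3 with nano vehicle. All mice were male ob/ob mice, which lack functional leptin, on a chow diet and 9 weeks old when the tissues were taken after 4 weeks of oral vehicle. The regular vehicle was methylcellulose, the vehicle of γ-oryzanol, a rice bran compound, and the nano vehicle was water, the vehicle of γ-oryzanol in polymer nanoparticles. The other 12 arrays, 6 with each form of γ-oryzanol, are not compared here. No lean mice were on the arrays, so every value describes obese animals, and the 3 mice of a group were selected by the authors as representative. Labels call the 3 arrays of a group biological replicates but do not say whether liver and hypothalamus came from the same mice.

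The liver makes most plasma proteins, releases glucose between meals, builds fat after them, disposes of nitrogen as urea, makes bile acids and clears foreign compounds, and hepatocytes carry out nearly all of this. The hypothalamus is a small brain region of neurons, astrocytes and myelinating oligodendrocytes whose peptide-releasing neurons control appetite, water balance, body temperature and the pituitary. Leptin from fat acts there, and mice without it overeat and store fat in the liver.

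Signals of a tissue and vehicle had been computed apart from those of the other sets of arrays, so log2 signals were not on one scale across tissues. Each of the 45101 probe sets was therefore given its percentile rank within its array, 0 for the dimmest and 100 for the brightest, and a tissue difference is liver minus hypothalamus in percentile points. A rank tells where a probe set stands among all probe sets of an array and is no amount of RNA, and ranks of different genes are not set against each other as amounts. In bulk tissue, fewer cells of a type and less RNA per cell cannot be told apart. A probe set was called where limma gave an adjusted p under 0.05 and the difference was at least 20 points the same way with either vehicle, called the regular and the nano arm. By this rule 3726 probe sets (8.26%) were higher in liver and 4921 (10.9%) in hypothalamus, a split of 43.1% to 56.9%. On the log2 signals as deposited, called at 0.5 log2 units, 2732 were higher in liver and 18255, or 87.0% of the calls, in hypothalamus, where the median of all probe sets lay 0.455 log2 units lower in liver (-0.455). Over the 18194 genes with a probe set of their own, each taken by its brightest probe set, 1843 (10.1%) were higher in liver and 1921 (10.6%) in hypothalamus.

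The size in both arms, not the p-value, decided these calls. The 3 arrays of a set had almost no spread, with a median SD of 0 to 0.00128 points, and the adjusted p was under 0.05 for 38586 probe sets (85.6%) and, with the 4 set means as the only values, for 12560 (27.8%). With the set as a block, exactly 1 probe set met the size rule and failed on p, that of Sult2a2. Sult2a2, a sulfotransferase of bile acids and steroids, stood at 60.8, 63.3 and 88.5 in the nano vehicle livers. It stood at 96.0 in the regular vehicle livers and at 5.16 to 6.55 in hypothalamus. Its adjusted p was 0.308 by that limma fit and 0.0285 from the 4 set means. By the 4 set means, 3583 of the 3726 calls toward liver and 4708 of the 4921 toward hypothalamus were kept. The rest failed on p there. The tissue difference had r = 0.894 between the arms across probe sets, a description over features that share arrays, and differed between the arms by a median of 5.05 points. Of the probe sets past 20 points in the regular arm 72.3% were past it the same way in the nano arm, and 28 were past it in opposite ways. The difference changed by at least 10 points between the arms for 11968 probe sets (26.5%) that also had an adjusted p under 0.05 for the interaction term. That p was under 0.05 for 45063 probe sets, being set against the spread within sets, so the 10 points and not the p made this selection. Vehicle and the set in which signals were computed cannot be told apart there. Between the sets of the same tissue, 4.0% of probe sets in liver and 1.63% in hypothalamus lay 20 points apart, against 26.5% and 26.6% between the tissues.

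**Figure D1:**
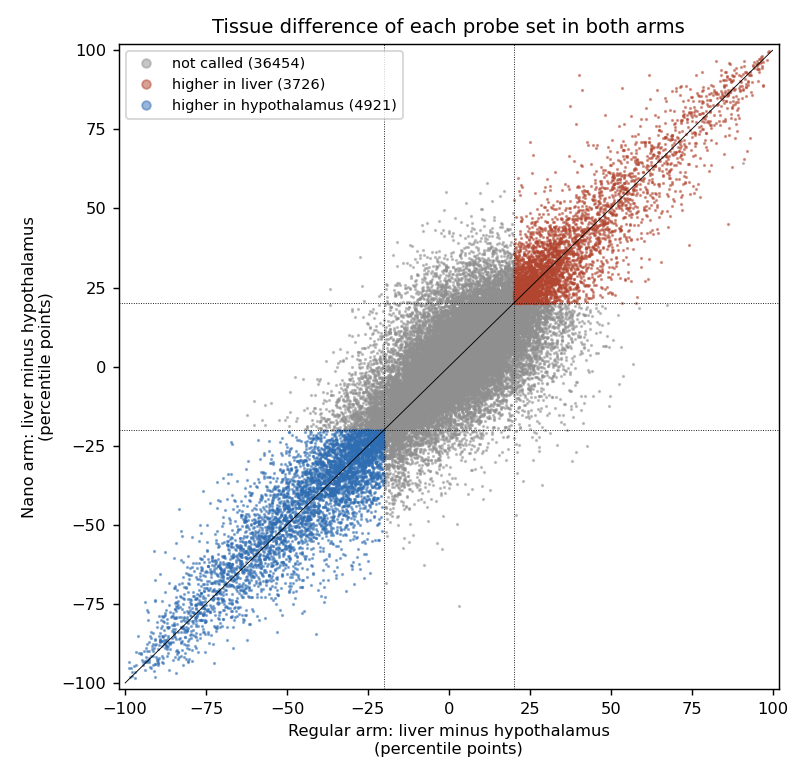
Liver minus hypothalamus in percentile points for each of 45101 probe sets, regular arm on the horizontal and nano arm on the vertical axis, with dotted lines at 20 points and a solid line of equality. The 3726 probe sets called higher in liver and 4921 called higher in hypothalamus lie in opposite corners, and the ends of the cloud lie closer to the line than its middle.

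Genes that neither tissue is known to use served to gauge which ranks a silent gene can take. Of 28 measured genes of sperm, photoreceptors, exocrine pancreas, skin and skeletal muscle, 3 were called higher in liver (Gnat1, Prss2 and Cel) and 1 in hypothalamus (Krt1), and their median rank was 46.7 in liver and 31.9 in hypothalamus. Over all genes 10.1% were called higher in liver and 10.6% in hypothalamus, so the count of the 28 toward liver lay near the share over all genes. Their median difference was 8.36 points toward liver, against 2.45 over all genes. The highest of the 28 stood at 77.3 in liver (Prss2, a pancreatic trypsinogen) and 72.3 in hypothalamus (Lor, a skin protein). Ranks below these values therefore overlap those of genes taken to be silent. Of the genes called higher in liver, 1103 of 1843 (59.8%) had a liver rank above all 28, and of those called higher in hypothalamus, 1387 of 1921 (72.2%) had a hypothalamus rank above all 28. This limit was set after the values were seen.

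The 15 genes of largest difference toward liver had ranks of 97.5 to 99.9 in liver and 1.35 to 6.31 in hypothalamus, and the smaller difference of the arms was 92.3 to 97.0 points. Mug1, which encodes murinoglobulin, a protease inhibitor of rodent plasma, stood at 99.2 in each regular and 98.8 in each nano vehicle liver, and at 0.907 and 1.80 in the hypothalamus sets. Fga and Fgb, 2 of the 3 fibrinogen chains that form a clot, were at 99.7 to 99.8 in the liver arrays, while Fga was at 3.28 and 3.56 and Fgb at 3.97 and 2.43 in the hypothalamus sets. Otc, the urea cycle enzyme that makes citrulline, was at 99.6 and 99.3 in liver against 4.40 and 4.14. The other leaders were F13b, the carrier subunit of clotting factor XIII; Cyp3a25, Cyp2c37, Ugt2a3, Ces1c and Gsta2, which oxidise, conjugate or hydrolyse drugs and steroids; Mat1a and Bhmt2 of methionine metabolism; Hsd17b13, a lipid droplet protein; Apof, an apolipoprotein; and Tfpi2, a protease inhibitor. No array of a tissue overlapped the other tissue for any of them, and the arrays of a set spanned at most 0.00443 points.

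In hypothalamus the 15 leaders had ranks of 91.7 to 99.8 against 0.761 to 11.4 in liver. Snap25, a SNARE protein of vesicle fusion, stood at 99.8 and 99.9 in the hypothalamus sets and at 0.823 and 4.62 in the liver sets. Its difference was -98.9 points in the regular and -95.3 in the nano arm, with a mean of -97.1. Cadps and Snap91 act in the release and recycling of vesicles, Scg2 and Scg5 belong to dense-core granules, Chl1 and Adgrb3 are neuronal surface proteins, Nefm is a neurofilament subunit and Htr2c a serotonin receptor that acts on appetite. Htr2c was at 94.7 and 95.6 in hypothalamus against 4.17 and 3.87 in liver. Sox2 and Zic1 are transcription factors of neural progenitors and of parts of the diencephalon, and Csrnp3, Bex1, Nexmif and Cracd complete the group. All 30 leaders had an adjusted p of at most 2.69e-14 by limma with the set as a block, and of 0.0136 from the 4 set means.

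**Figure D2:**
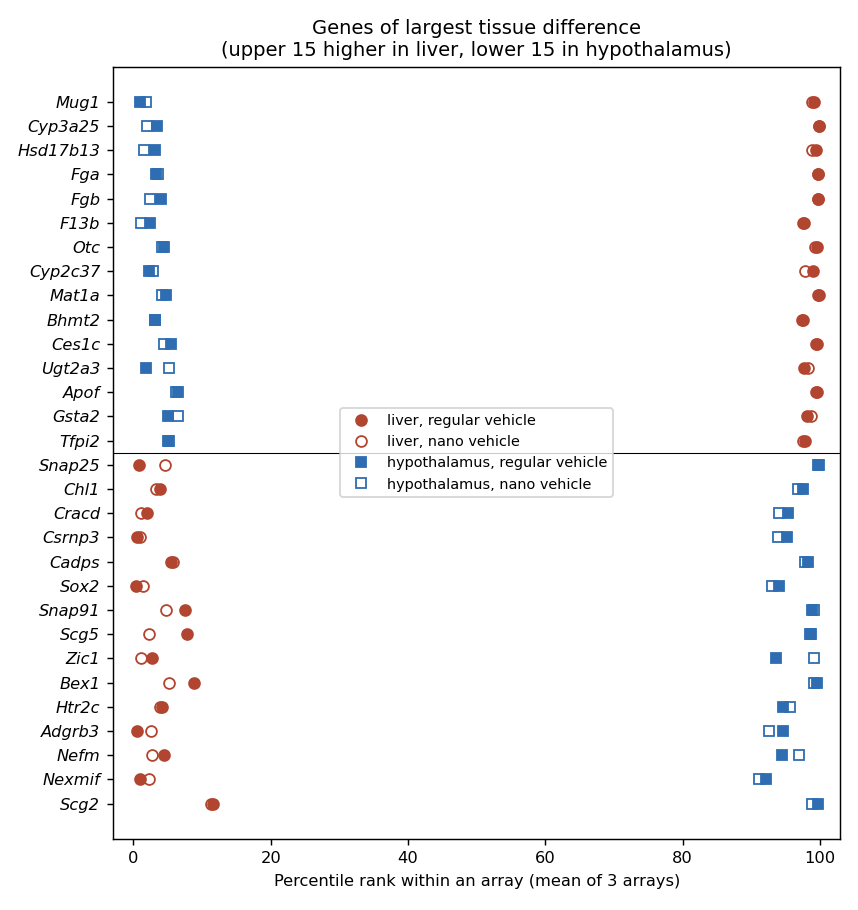
Percentile rank of the 15 genes of largest difference in each direction, with 1 point for the mean of the 3 arrays of each tissue and vehicle. Both vehicles of a tissue lie together, and no gene has a rank between 11.6 and 91.2.

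Plasma protein genes were at the top of the liver arrays. Of 22 measured, 20 were higher in liver and 0 in hypothalamus, with a median difference of 73.7 points against 2.45 over all genes. Fgg, the remaining fibrinogen chain, stood at 99.8 in liver and 10.4 in hypothalamus, Serpinc1 (antithrombin) at 99.9 and 12.2, Kng1 (kininogen) at 98.8 and 10.9, and Ahsg (fetuin-A) at 99.7 and 17.6. The 2 genes not called were high in both tissues: Itih3, of the inter-alpha-trypsin inhibitor family, at 98.3 and 98.8, and Vtn (vitronectin) at 99.6 and 91.7. Alb, the carrier protein albumin, stood at 100 in every liver array and at 22.4 to 26.0 in the hypothalamus arrays.

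Of 14 hepatocyte transcription factors, 12 were higher in liver (median difference 48.2 points). Foxa3, a forkhead factor, stood at 86.1 against 12.7, the bile acid receptor Nr1h4 at 94.1 against 24.2, and the xenobiotic receptors Nr1i3 and Nr1i2 at 93.7 against 21.1 and 80.0 against 20.2. Foxa2 was at 84.3 against 24.3 and Nr0b2, the bile acid feedback repressor, at 88.6 against 30.6. For Nr0b2 the nano arm gave 47.6 points and the regular arm 68.5. Onecut1 and Prox1 were not called, with liver ranks of 60.5 and 73.2 within the range of the silent genes.

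The metabolic tasks of the liver were separated as sharply. Of 15 genes of the urea cycle and amino acid breakdown, 14 were higher in liver, led after Otc by Arg1 (99.8 against 6.71), which splits arginine into urea and ornithine, Hal (97.7 against 10.7), which begins histidine breakdown, Agxt (96.6 against 17.8), Hgd (99.6 against 26.6) of the tyrosine pathway and Nags (90.2 against 20.04), whose product switches on the urea cycle. Fah, the last enzyme of tyrosine breakdown, was not called at 99.4 against 82.8. Of 12 genes of glucose output and storage, 9 were higher in liver: Gys2, the liver glycogen synthase, at 96.4 against 7.52, Pck1 at 99.001 against 14.5, Fbp1 at 99.9 against 20.6 and G6pc at 98.3 against 32.8, the last 3 being steps of gluconeogenesis, and the glucose transporter Slc2a2 at 99.2 against 16.1. The 3 not called were Pcx at 98.8 against 89.0, Slc37a4 at 97.8 against 77.3 and Ppargc1a, a coactivator of mitochondrial genes, at 74.9 against 89.2.

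Of 17 genes of drug oxidation and conjugation, 16 were higher in liver, with the largest list median of all, 80.8 points. Ugt2b5 and Ugt2b1, which attach glucuronic acid, were at 99.5 against 8.80 and 99.1 against 9.72, and the cytochromes Cyp4a14, Cyp2j5, Cyp3a11 and Cyp1a2 at 97.2 to 99.95 against 9.87 to 12.3. Gstp1, a glutathione transferase found widely, was not called at 99.9 against 99.5. Members of these families are alike in sequence, so that a probe set may read more than the gene it is annotated to. Of 14 bile acid genes, 12 were higher in liver, among them Baat (96.7 against 5.40), which couples bile acids to taurine, the uptake carriers Slco1b2 (99.2 against 9.11) and Slc10a1 (99.5 against 29.6), the export pump Abcc2 (96.2 against 6.05), Akr1d1 (96.8 against 12.9) and Slc27a5 (99.6 against 32.9). Cyp7b1 was not called at 80.3 against 69.6, nor was Slco1a1 at 53.4 against 40.5.

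Genes of fat synthesis and storage divided into a part that was called and a larger part that was not. Of 26 measured, 12 were higher in liver and 14 were not called (median difference 18.2 points). The lowest liver rank of the 26 was 62.0, within the range of the silent genes, and belonged to a gene not called. All 12 called genes ranked above the silent genes in liver. Those called included Fabp1, the liver fatty acid binding protein, at 99.97 against 12.1, the lipid droplet protein Cidec at 90.9 against 19.98, Pparg, the receptor that drives fat storage, at 87.3 against 26.0, the fatty acid transporter Cd36 at 98.2 against 33.9, Mogat1 at 86.8 against 30.2 and Apoa4 at 99.7 against 44.3. Enzymes of fatty acid synthesis that stood high on both sides included Fasn at 99.5 against 96.0, Scd1 at 99.99 against 98.4, and Elovl6 at 99.4 against 90.5. With quantile normalized signals 25 of the 26 were called higher in liver, and with the signals as deposited 23. Ranks near the top of the scale leave less room for a difference in points. Of 14 genes of sterol synthesis 0 were called either way, with medians of 94.8 in liver and 87.8 in hypothalamus, while 9 were called higher in liver and 1 in hypothalamus on quantile normalized signals.

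Every one of the 23 measured pan-neuronal genes was higher in hypothalamus (median difference -71.1 points). After Snap25 and Nefm came Eno2, the neuronal enolase, at 99.5 against 9.02 in liver, Map2 of dendritic microtubules at 99.4 against 11.7, the neurofilament gene Nefl at 99.1 against 16.7 and the vesicle protein Syp at 98.5 against 16.7. Of 17 voltage-gated channel genes, 15 were higher, led by the potassium channel Kcnc2 (94.6 against 7.69) and the sodium channels Scn3a (88.3 against 6.23) and Scn1a (87.3 against 17.2). The calcium channel Cacna1a at 72.9 against 55.3 and the pacemaker channel Hcn2 at 88.6 against 63.7 were not called.

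Inhibitory and excitatory transmission were both represented. Of 12 GABA genes, 10 were higher in hypothalamus, among them the GABA-synthesising enzymes Gad1 (93.1 against 28.4) and Gad2 (94.8 against 28.7), the vesicular carrier Slc32a1 (91.3 against 24.6) and the receptor subunits Gabrb1 (98.1 against 15.4), Gabra5 (86.5 against 4.41) and Gabrg1 (90.8 against 15.2). Abat, which breaks GABA down and is also a liver enzyme, was at 98.6 against 98.1. Of 16 glutamate genes, 13 were higher, led by the receptor subunit Gria1 (97.5 against 12.98), and Slc17a6, the vesicular glutamate carrier of subcortical neurons, was at 98.7 against 26.8. Slc17a7, the carrier of cortical neurons, was not called at 26.2 against 19.2.

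Of 31 neuropeptide and granule genes, 24 were higher in hypothalamus (median difference -45.5 points). The peptide-processing enzyme Cpe stood at 99.9 against 9.96, the granins Chgb, Scg2 and Chga at 98.8, 99.3 and 96.3 against 10.1, 11.4 and 21.5, the neurokinin B precursor Tac2 at 92.3 against 14.6, and Cartpt, a precursor of appetite-reducing peptides, at 92.7 against 16.5. Pmch, the precursor of melanin-concentrating hormone, was at 99.9 and 99.8 in the hypothalamus sets against 48.1 and 29.9 in liver, and Avp, vasopressin, at 99.3 and 98.8 against 58.4 and 48.7. These 2 are named beyond the fixed rule because the peptides mark hypothalamic neurons. Agrp, the appetite-raising peptide that Pomc neurons oppose, was not analysed here. Pomc and Oxt were not called: Pomc, whose product melanocortin reduces feeding, stood at 72.8 and 68.1 against 57.7 and 51.5, and Oxt at 97.8 and 98.3 against liver ranks of 80.9 and 84.4.

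Of 21 measured receptors of energy balance, 3 were higher in hypothalamus, namely Htr2c, Npy2r (67.7 against 7.58) and Npy5r (52.9 against 20.1), and 1 was higher in liver, the glucagon receptor Gcgr (97.1 against 55.3). The shares over all genes were 10.6% in hypothalamus and 10.1% in liver. With the median over the probe sets of a gene, 5 were higher in hypothalamus and 4 in liver, with quantile normalized signals 5 and 5, and with the signals as deposited 11 and 4. Of the 4 called by rank, only Htr2c and Gcgr ranked above all silent genes in their higher tissue. Lepr, the leptin receptor, stood at 46.4 in hypothalamus and 58.7 in liver, both within the range of the silent genes, and the insulin receptor Insr at 79.7 and 92.5. Of 22 hypothalamic transcription factors, 9 were higher in hypothalamus and 2 in liver. Sox2, Nhlh2 (69.9 against 2.47), Dlx1 (74.5 against 20.2), Dlx2 (67.3 against 18.5), Fezf1 (58.3 against 15.5) and Otp (92.0 against 54.2) led, and only 4 of the 9 ranked above all silent genes. Lhx6 (73.6 in liver against 41.4) and Tbx3 (84.6 against 53.4), the latter a factor also of liver development, were higher in liver. Lhx6 lay within the range of the silent genes there. Nkx2-1, a founding factor of the ventral hypothalamus, stood at 30.8 in hypothalamus and 35.2 in liver.

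**Figure D3:**
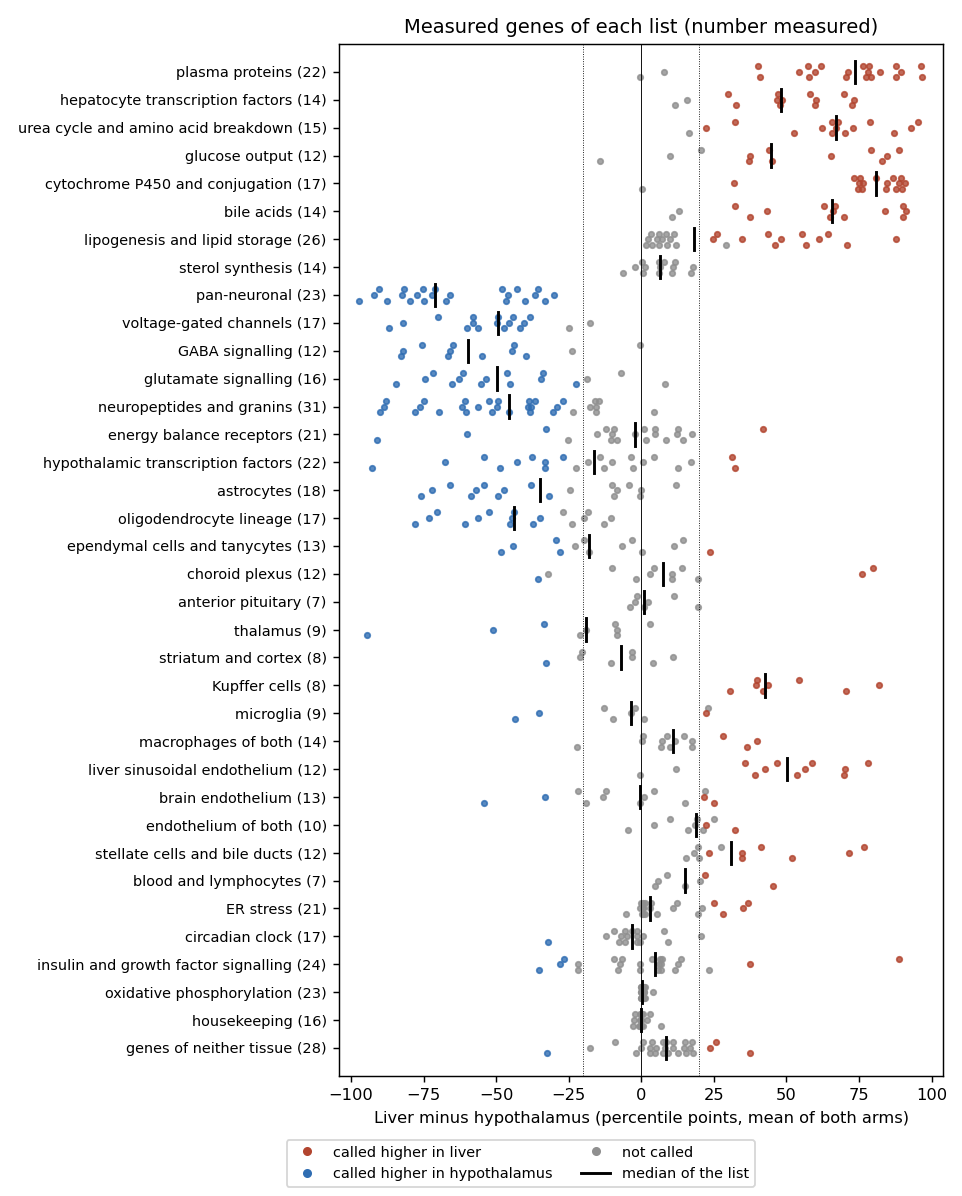
Liver minus hypothalamus in percentile points for each measured gene of 36 lists, with red and blue points for genes called higher in liver and hypothalamus, grey points for genes not called and a black bar at the list median. Lists of hepatocyte functions lie to the right, neuronal lists to the left, and the 23 genes of oxidative phosphorylation and 16 housekeeping genes near 0.

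Many glial genes were higher in hypothalamus, while several astrocyte markers ranked high in liver too. Of 18 astrocyte genes, 10 were higher, led by the GABA transporter Slc6a11 (95.9 against 20.04), the connexin Gjb6 (91.7 against 19.5), S100b (93.3 against 27.6) and Mlc1 (90.4 against 31.5). Aldh1l1 of folate metabolism at 87.6 against 99.6, glutamine synthetase Glul at 99.1 against 98.6 and angiotensinogen Agt at 97.8 against 97.9 were not called, and hepatocytes are known to make all 3. Of 17 genes of the oligodendrocyte lineage, 11 were higher, among them the myelin genes Mog (81.1 against 3.05), Cldn11 (91.1 against 17.9), Ermn (82.3 against 21.6) and Opalin (84.5 against 32.2) and the lineage factor Olig2 (77.7 against 7.47). In 15 of the 17 the nano vehicle hypothalami ranked above the regular vehicle hypothalami, by a median of 2.45 points, as did 19 of the 23 pan-neuronal genes, by a median of 0.216, and 48.6% of all genes.

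Markers of structures that border the hypothalamus were used to ask what else its samples held. In the nano vehicle set, 9 of 9 thalamus markers ranked higher than in the regular vehicle set, with a median gap of 11.4 points against -0.075 over all genes, and 6 of the 9 were at least 10 points higher. The list was chosen with earlier results of these data known, so this count is a description and no independent evidence. Tcf7l2, a factor of thalamic neurons, stood at 97.6 against 86.1, Prkcd at 95.8 against 63.6 and Tnnt1 at 76.5 against 24.1. Zic1, Calb2 and Ntng1 of this list were higher in hypothalamus than in liver in both arms. Vehicle, quantification set and the piece of tissue taken cannot be told apart here. The choroid plexus marker Ttr was also unequal within a set: on its widest probe set it stood at 99.98, 99.95 and 72.0 in the 3 nano vehicle hypothalami and at 59.4 in all 3 with regular vehicle, against 99.97 in liver, where transthyretin is a plasma protein. On the probe set that represents the gene the tissue difference was 19.4 points and 17.3 to 20.5 when an array was left out (not called, adjusted p = 0.591). Over the choroid plexus list the median hypothalamus rank was 37.3. Folr1, Kcnj13 and Kcne2, named after their values were seen, were at 40.7 and 32.5, 45.4 and 33.5, and 4.33 and 6.70 in the regular and nano sets. Beside Ttr, only Kcnj13 and Kl of this list were among the probe sets that spanned most within a set. In the 3 nano vehicle hypothalami Kcnj13 stood at 33.63, 33.62 and 33.15 and Kl at 32.86, 32.66 and 31.96, lowest in the same array as Ttr. Of the 12 genes of this list, Aqp1 (92.4 against 12.6) and F5 (98.3 against 22.3), clotting factor V, were higher in liver and Kl (39.0 against 3.34) in hypothalamus. Of 8 markers of striatum and cortex 1, Nrgn (a difference of -32.9 points), was higher in hypothalamus, against 10.6% of all genes. Of 7 pituitary genes 0 were called, with hypothalamus ranks of 4.38 to 35.8, and of 13 ependymal and tanycyte genes 4 were higher in hypothalamus and 1, Rarres2 (98.97 in liver against 75.2), in liver, where chemerin is secreted.

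All 8 Kupffer cell genes were higher in liver, led by Vsig4 (89.5 against 7.42), a complement receptor, and Cd5l (94.2 against 23.7), though only 4 of them, Vsig4, Cd5l, Clec4f and Slc40a1, ranked above all silent genes there. Of 9 microglial genes, P2ry12 (67.3 against 23.8 in liver) and Gpr34 (38.2 against 2.85) were higher in hypothalamus and the fructose transporter Slc2a5 (70.1 against 47.8) in liver, and none of the 3 ranked above the silent genes. On the signals as deposited 7 of the 9 were called higher in hypothalamus and 0 in liver. Of 14 genes shared by both kinds of macrophage, with medians of 85.2 in liver and 62.3 in hypothalamus, 3 were higher in liver, Ptprc, Lyz2 and Cd68, of which only Lyz2 ranked above the silent genes there. Csf1r stood at 94.8 and 94.6 and C1qa at 89.97 and 82.8, and neither was called. Of 12 genes of the liver sinusoidal endothelium, 10 were higher in liver, among them the lectins Clec4g (92.8 against 14.7) and Clec1b (81.7 against 11.5), Dnase1l3 (81.0 against 11.1), and the scavenger receptors Mrc1 (88.6 against 29.7) and Stab2 (87.8 against 31.2). Of 13 genes of the blood-brain barrier, 4 were called: Slco1c1 (88.2 against 34.1), a thyroid hormone carrier, and Slc7a5 (83.0 against 49.7) were higher in hypothalamus, and Abcg2 and Mfsd2a, which hepatocytes also express, in liver. Over all genes 10.6% were called higher in hypothalamus and 10.1% in liver. On the signals as deposited 7 of the 13 were called higher in hypothalamus and 2 in liver. Of 10 endothelial genes of both tissues 2, Cdh5 and Tek, were higher in liver, as were 2 of 7 genes of blood cells, Alas2 and Cd79b, of which Cd79b turned to -0.0255 log2 units on the signals as deposited and was not called. Of 12 genes of stellate cells and bile ducts 7 were higher in liver, led by Colec11 (95.6 against 18.8) and Lrat (84.9 against 13.4), which stores vitamin A. Col1a1 at 60.8 against 37.6 is among them, but on the signals as deposited its difference turned to -0.0233 log2 units and was not called.

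Genes of general cell function were mostly not called between the tissues. Of 23 genes of oxidative phosphorylation 0 were called, with medians of 98.8 in liver and 98.4 in hypothalamus, and of 16 housekeeping genes 0 were called, with medians of 98.9 and 99.2. The counts at the top are bounded by the scale, and with the signals as deposited 7 of the 16 housekeeping genes were called higher in hypothalamus and 1 in liver. Of 21 genes of ER stress, 4 were higher in liver: Atf3 (61.8 against 25.1), Trib3 (76.7 against 41.6), Pdia4 (94.0 against 66.0) and Edem1 (95.2 against 70.1). Atf3 and Trib3 lay within the range of the silent genes in liver. Hspa5, the main ER chaperone, was at 98.9 and 97.8. The list gave 10 in liver on quantile normalized signals, and 7 in liver and 3 in hypothalamus as deposited. Of 17 clock genes only Npas2 was called, higher in hypothalamus (65.5 against 33.3) but within the range of the silent genes there. With the median over the probe sets of a gene 0 were called, while the signals as deposited gave 11 in hypothalamus and 1 in liver. Of 24 genes of insulin and growth factor signalling, Igfbp1 (96.4 against 7.75) and Igf1 (98.0 against 60.6) were higher in liver, and Grb10 (95.9 against 60.6), Igfbp5 (95.7 against 67.7) and Igf1r (86.3 against 59.6) in hypothalamus. These counts lie near the shares over all genes, 10.1% in liver and 10.6% in hypothalamus. With the median over the probe sets of a gene the balance of this list turned to 5 in liver and 1 in hypothalamus, and on the signals as deposited it was 4 and 12. Probe sets whose rank was 99 or above in both sets of a tissue numbered 405 in liver and 383 in hypothalamus, and 121 were in both, 29.9% of the former and 31.6% of the latter. The 20 genes whose lowest rank over the 12 arrays was highest, from 99.48 to 99.93, included Actb and Gapdh, the ferritin chain Fth1, the respiratory genes Cox4i1, Cox5b, Cox6a1, Uqcrb and ND5, the translation genes Eef1a1 and Rps29, and Apoe, Clu and Selenop, which encode proteins secreted by hepatocytes and by astrocytes.

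Pairs of related genes, with a member taken as the liver form and another as the brain form, were compared to see whether they changed places. Of 30 pairs, 22 had both members measured, the other 8 were not analysed here, and in 11 the liver member was higher in liver and the brain member in hypothalamus. Pyruvate kinase Pklr stood at 96.8 in liver and 59.4 in hypothalamus, and Pkm at 72.3 and 99.3. The glucose transporter Slc2a2 stood at 99.2 and 16.1, and the neuronal Slc2a3 at 22.0 and 97.5. Glycogen phosphorylase Pygl was at 99.2 and 55.1 and Pygb at 62.2 and 96.3. Cholesterol is hydroxylated by Cyp7a1 on the way to bile acids and by Cyp46a1 when neurons shed it, and these were at 88.5 and 22.4 and at 65.6 and 92.0. The SNARE genes gave Snap23 at 83.7 and 50.7 and Snap25 at 2.72 and 99.8. The other opposite pairs were Arg1 and Arg2, Cpt1a and Cpt1c, Gjb1 and Gja1, Sult1a1 and Sult4a1, Slc38a4 and Slc38a1, and Vamp8 and Vamp2. Arg2 at 40.7 in hypothalamus lay within the range of the silent genes.

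In 5 pairs only the liver member was called, as for glycogen synthase, where Gys2 stood at 96.4 in liver and 7.52 in hypothalamus and Gys1 at 59.1 and 70.5, and for Fabp1, whose partner Fabp7 was at 73.3 and 92.7. Acacb, Dio1 and Rab3d were the other 3. Of their partners, Acaca (97.2 and 88.7) and Dio2 (62.7 and 51.3) ranked higher in liver in both arms. Dio2 lay within the range of the silent genes. Rab3a (88.9 and 99.1) ranked higher in hypothalamus. In 3 pairs only the brain member was called: Pfkp (52.0 and 95.3) beside Pfkl (80.2 and 82.1), Ldhb (74.5 and 99.01) beside Ldha (99.5 and 96.6), and Thra (73.7 and 98.6) beside Thrb (57.0 and 33.1). The desaturase, retinoid X receptor and polypyrimidine tract binding protein pairs had neither member called. Scd1 and Scd2, for example, stood at 99.99 and 98.4 and at 89.4 and 99.9.

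**Figure D4:**
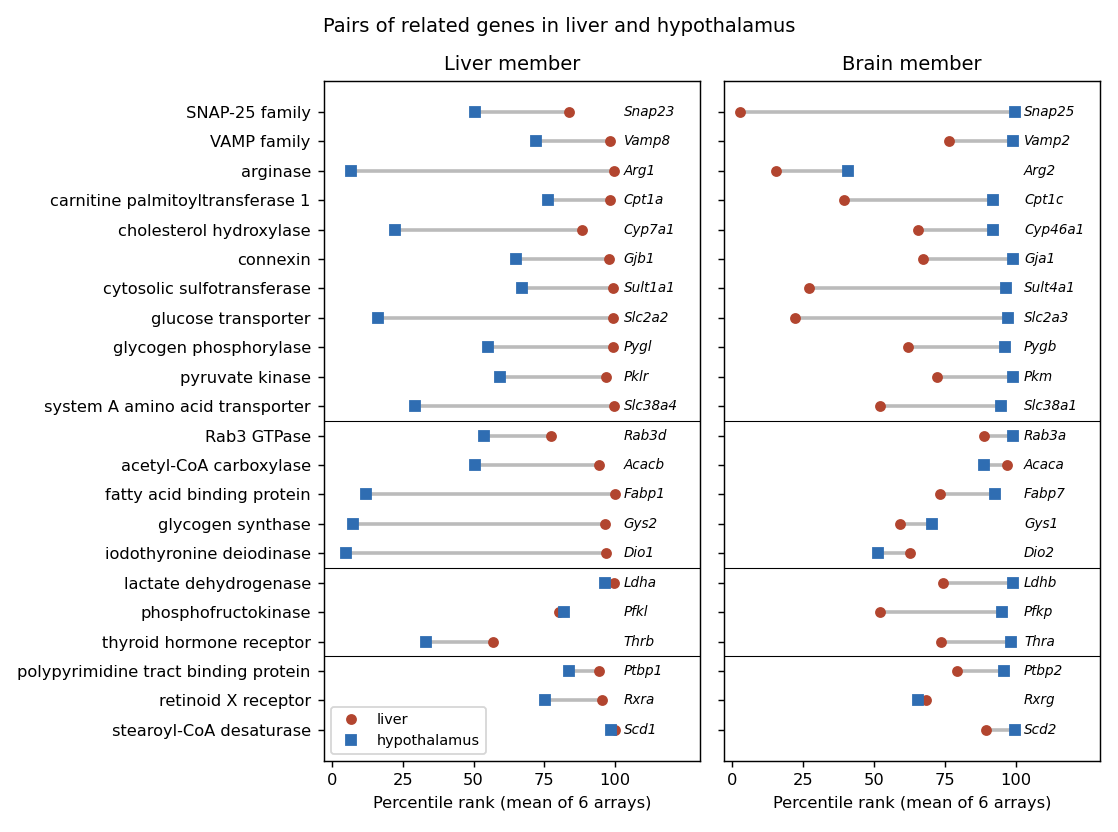
Percentile rank in liver (circles) and hypothalamus (squares), each the mean of 6 arrays, for the liver and brain member of 22 pairs, with lines separating 11 pairs called in opposite ways, 5 with the liver member alone, 3 with the brain member alone and 3 with neither. In the upper 11 rows the circle lies to the right for the liver member and to the left for the brain member.

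Probe sets of the same gene could also point opposite ways, in 25 genes, chosen here after their values were seen. One probe set of Epb41l4b, a cytoskeletal linker gene, stood at 89.7 and 89.6 in the liver sets and 37.2 and 28.7 in the hypothalamus sets, and another at 6.72 and 8.74 against 91.3 and 88.1. For Il1rap, the accessory chain of the interleukin-1 receptor, one stood at 96.8 and 97.4 in liver against 13.4 and 19.7, and another at 26.0 and 37.0 against 62.1 and 73.7. For Kcna1 and Slc32a1 the probe sets higher in liver had liver ranks of 55.0 to 61.6, within the range of the silent genes. Syp and Scn3a, named above as higher in hypothalamus, each also had a probe set higher in liver. Its liver ranks were 33.5 and 55.5 for Syp and 35.1 and 37.5 for Scn3a, within the same range. Which transcript each probe set reads was not examined.

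Promoters of the called genes differed in composition, which the ranks did not use. RefSeq sequences from 250 bases before to 50 after the start, build GRCm38.p6, were matched by gene ID for 14369 of 18194 genes (79.0%), for 1421 genes higher in liver and for 1495 higher in hypothalamus. The median GC content was 58.7% over all, 54.7% for liver genes and 61.3% for hypothalamus genes. The CpG dinucleotide, at 1 where it is as frequent as its bases predict, had a median observed over expected ratio of 0.675 over all, 0.400 for liver genes and 0.677 for hypothalamus genes. In genes that differed by at least 40 points in each arm the medians were 0.280 for 517 liver genes and 0.632 for 653 hypothalamus genes, and a ratio of at least 0.6 was found in 18.4% and 53.9%, against 57.1% of all.

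**Figure D5:**
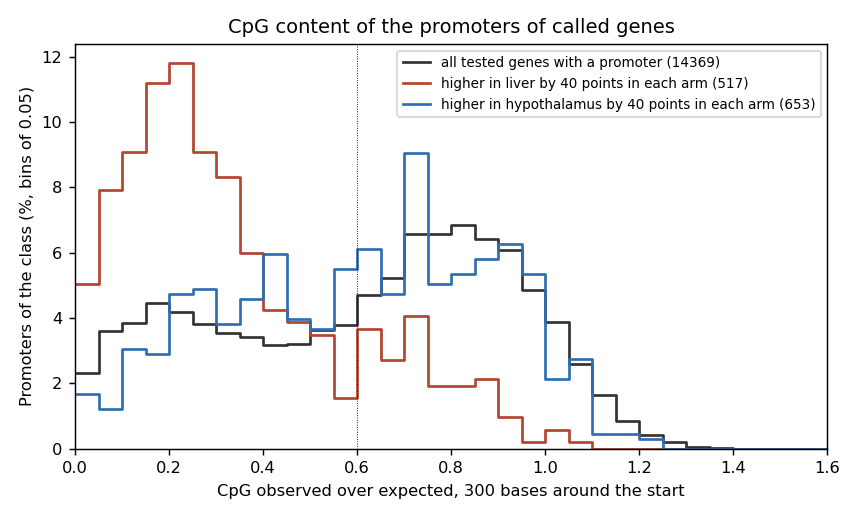
Share of promoters, in percent of a class, by CpG observed over expected in bins of 0.05, for all 14369 tested genes with a promoter, 517 genes higher in liver and 653 genes higher in hypothalamus by at least 40 points in each arm. The liver class has 18.4% of its promoters at or above the dotted line at 0.6, the hypothalamus class 53.9% and all genes 57.1%.

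Short motifs were searched on both strands as exact letters. The TATA box core TATAAA was in 9.85% of all promoters, 13.4% of those of liver genes and 8.23% of those of hypothalamus genes, and in 18.8% and 9.65% at 40 points. The core GTTAAT of sites for HNF1, a hepatocyte factor, was in 5.03%, 8.02% and 4.41%, and in 13.5% and 5.67% at 40 points, each promoter counted once. CAAAGTCCA, a site of the hepatocyte factor HNF4A, was in 0.466%, 1.34% and 0.201%, that is in 19 liver genes and 3 hypothalamus genes. The GC box GGGCGG was in 54.1%, 44.1% and 58.2%, and the CCAAT box in 38.2%, 38.0% and 36.2%. TTGCGCAA, a C/EBP site, was in 0.230%, 0.281% and 0.134%, and GCATGCGC, the core of an NRF1 site, in 4.29%, 2.18% and 3.34%. No motif searched holds another. GC content differs between the classes too, and its part in these shares was not tested. Alb and Fga are shown for the first core and Cyp3a11 and Cyp8b1, a bile acid hydroxylase at 97.9 in liver and 34.9 in hypothalamus, for the HNF4A site, each with the motif in capitals as it reads on the gene's strand, where ATTAAC is GTTAAT on the opposite strand.
Alb (chr5:90460620-90460919, plus strand): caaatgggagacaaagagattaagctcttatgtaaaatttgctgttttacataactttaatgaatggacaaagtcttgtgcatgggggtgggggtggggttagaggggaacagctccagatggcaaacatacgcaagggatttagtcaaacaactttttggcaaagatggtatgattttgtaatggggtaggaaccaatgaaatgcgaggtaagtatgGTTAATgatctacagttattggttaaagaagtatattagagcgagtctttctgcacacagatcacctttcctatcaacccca
Fga (chr3:83025903-83026202, plus strand): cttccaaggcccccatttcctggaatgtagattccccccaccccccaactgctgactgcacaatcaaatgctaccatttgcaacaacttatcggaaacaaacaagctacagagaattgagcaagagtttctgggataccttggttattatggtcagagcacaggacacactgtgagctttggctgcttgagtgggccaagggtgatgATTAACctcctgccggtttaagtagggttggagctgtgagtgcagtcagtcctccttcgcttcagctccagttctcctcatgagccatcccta
Cyp3a11 (chr5:145879805-145880104, minus strand): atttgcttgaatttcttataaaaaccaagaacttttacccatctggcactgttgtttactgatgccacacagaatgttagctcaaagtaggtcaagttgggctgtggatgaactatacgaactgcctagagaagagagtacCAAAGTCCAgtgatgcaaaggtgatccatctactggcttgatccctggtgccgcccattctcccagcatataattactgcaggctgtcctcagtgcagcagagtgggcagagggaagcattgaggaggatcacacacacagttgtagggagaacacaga
Cyp8b1 (chr9:121916256-121916555, minus strand): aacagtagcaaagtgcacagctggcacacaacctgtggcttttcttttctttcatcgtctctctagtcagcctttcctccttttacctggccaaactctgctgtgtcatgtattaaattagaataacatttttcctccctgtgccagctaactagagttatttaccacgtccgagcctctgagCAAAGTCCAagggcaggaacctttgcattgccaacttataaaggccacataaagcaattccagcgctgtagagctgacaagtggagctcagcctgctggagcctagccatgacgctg

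RE1 is the element through which REST silences neuronal genes outside the brain. Its left part TTCAGCACC was in 0.383% of all promoters, 0.602% of those of hypothalamus genes (9) and 0.0704% of those of liver genes (1), and its right part GACAGCGCC in 0.522%, 1.07% (16) and 0.281% (4). At 40 points the left part was in 0 of 517 liver promoters and in 1.07% of hypothalamus promoters (7). The right part was in 0.58% of liver promoters (3) and 1.07% of hypothalamus promoters (7) at 40 points, so that its liver share was not below that of all. The cyclic AMP response element TGACGTCA, which reads the same on both strands, was in 2.69%, 3.14% and 1.62%, and in 3.06% and 0.193% at 40 points. Scg2 and Chgb are shown for the response element, which stands 68 and 72 bases before their starts, Scg2 carrying the left part of RE1 as well, and Unc13a and Ptprn2 for both parts of RE1, which follow their starts on the opposite strand as GGTGCTGAA and GGCGCTGTC. The parts lie farther apart in Unc13a than in Ptprn2, and whether they form a whole RE1 in either was not examined. Unc13a, a factor that primes vesicles, stood at 19.8 in liver and 86.5 in hypothalamus, and Ptprn2, a granule membrane protein, at 55.3 and 97.9. These genes were chosen after the motifs had been found in them, and a match is a run of letters, not a bound site.
Scg2 (chr1:79439977-79440276, minus strand): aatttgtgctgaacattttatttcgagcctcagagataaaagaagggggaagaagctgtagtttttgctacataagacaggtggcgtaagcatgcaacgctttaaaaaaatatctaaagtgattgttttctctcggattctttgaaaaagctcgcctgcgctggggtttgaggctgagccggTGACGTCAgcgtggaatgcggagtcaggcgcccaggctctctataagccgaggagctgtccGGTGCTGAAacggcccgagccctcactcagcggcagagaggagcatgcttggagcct
Chgb (chr2:132781392-132781691, plus strand): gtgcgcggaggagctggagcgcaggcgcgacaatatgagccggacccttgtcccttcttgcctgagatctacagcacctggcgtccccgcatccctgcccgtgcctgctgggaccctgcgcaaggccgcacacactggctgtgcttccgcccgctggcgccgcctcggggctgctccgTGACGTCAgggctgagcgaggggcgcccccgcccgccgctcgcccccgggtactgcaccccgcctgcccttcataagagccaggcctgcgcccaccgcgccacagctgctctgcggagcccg
Unc13a (chr8:71671708-71672007, minus strand): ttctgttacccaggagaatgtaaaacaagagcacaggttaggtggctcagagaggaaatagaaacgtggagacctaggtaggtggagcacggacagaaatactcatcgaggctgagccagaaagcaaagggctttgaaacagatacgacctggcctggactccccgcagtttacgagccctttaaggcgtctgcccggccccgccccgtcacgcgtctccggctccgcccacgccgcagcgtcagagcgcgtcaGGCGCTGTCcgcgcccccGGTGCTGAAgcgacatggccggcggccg
Ptprn2 (chr12:116485470-116485769, plus strand): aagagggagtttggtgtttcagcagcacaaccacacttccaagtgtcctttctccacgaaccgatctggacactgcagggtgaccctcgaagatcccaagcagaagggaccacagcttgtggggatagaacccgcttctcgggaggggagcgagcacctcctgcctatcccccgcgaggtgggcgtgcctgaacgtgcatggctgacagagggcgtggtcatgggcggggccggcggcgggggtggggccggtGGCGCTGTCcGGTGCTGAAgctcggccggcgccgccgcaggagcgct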

How the data were processed

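Total RNA had been extracted with Trizol and biotin-labelled cRNA hybridised to Affymetrix mouse expression arrays. The deposited values are log2 signals that the authors quantified by the distribution free weighted method, apart for each tissue and vehicle arm. A probe set was named by the platform annotation: 34958 of 45101 had 1 gene symbol, 932 several and 9211 none, and 64 were controls. Further tables of the arms held 24 columns whose names match no sample, and these were not used.

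Each array's signals were turned into percentile ranks and fitted with limma 3.58.1 (R 4.3.3) on arm and tissue, with the tissue and arm set as a random block whose estimated correlation was at its upper limit of 0.99. Since the set carries the quantification, each tissue has in effect 2 values. P-values were adjusted over all 45101 probe sets by the Benjamini-Hochberg method. On simulated data with a set SD of 5.328 points, 87 of 100 probe sets changed by 30 points were recovered. Of those changed by 50 points 100 of 100 were recovered, and 0 unchanged ones were called. The simulated set error was normal with the same SD for every probe set, so the 0 does not gauge false calls in the arrays. There, 3 of the 28 genes taken to be silent were called higher in liver and 1 in hypothalamus, against 10.1% and 10.6% of all genes. The arrays of a group came from different mice.

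Named genes are the 15 per direction with the largest smaller-arm difference, all members of the pairs, for each list up to 6 called genes per direction and up to 3 not called, and the 5 with the largest arm difference. Others (Alb, Pmch, Avp, Slc40a1, Sult2a2, Elovl6, Tcf7l2, Prkcd, Tnnt1, Folr1, Kcnj13, Kcne2, Cyp8b1, Unc13a, Ptprn2, genes near the top of every array and those with opposite probe sets) were chosen after their values were seen. The letters of the NRF1 and right RE1 motifs were shortened after longer forms had been searched. Members and lists were chosen with earlier results of these data known. Alternatives were other scales, size rules, filters, blocks, arms and samples. Tables and figures were made with Python 3.11.15, pandas 2.3.3 and matplotlib 3.10.9.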

Additional observations from a re-analysis of the deposited data

Results flagged for a closer look

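The liver to hypothalamus difference changed by at least 10 points between the vehicle arms for 11968 probe sets. The interaction term of limma, set against the spread within quantification sets, had an adjusted p under 0.05 for 45063 of 45101 and so did not decide this count. Among genes, the largest changes between the arms were those of A230009B12Rik (67.95 points, from 42.8 in the regular arm to -25.1 in the nano arm), Gpr151 (67.46), Cyp2g1 (66.43), Ap1m2 (61.94) and Stox1 (-61.31). A230009B12Rik, a gene without known function, stood at 5.92 in the regular and 57.3 in the nano vehicle hypothalami. Gpr151, an orphan receptor gene known from the habenula, which borders the thalamus, stood at 15.8 and 80.1 in the hypothalamus sets and at 36.5 and 33.3 in the liver sets. Cyp2g1, a cytochrome of the olfactory mucosa, went from 66.0 to 19.3 in liver and from 26.6 to 46.3 in hypothalamus, Ap1m2, an adaptor subunit of epithelial cells, from 78.1 to 42.3 and from 28.7 to 54.8, and Stox1 from 10.6 to 45.2 and from 47.3 to 20.5. None of the 5 was called between the tissues. Vehicle and quantification set cannot be told apart.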

How the results depend on the processing

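Of 633 genes of the lists, pairs and leaders, 324 of them called, the calls were the same without the random block, with the logit of the rank, with a trended variance prior and in the 12 oryzanol arrays, which share the quantification sets of the vehicle arrays and are no independent repeat. With the 4 set means 7 calls were lost. Leaving out each array in turn gave 3726 to 3727 probe sets higher in liver, 4920 to 4921 in hypothalamus and 11967 to 11969 that differed between the arms, which says nothing of stability, since the arrays of a set are nearly identical. Between liver and hypothalamus arrays of the same replicate number the correlations were -0.000259 to 0.0949, and between those of other numbers -0.0919 to 0.00732. With arrays of a set so alike, these values cannot tell whether the tissues came from the same mice. The fit with the replicate number as a block called 3727 and 4921.

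Counts turned on the scale and the size rule. Quantile normalized signals gave 7080 probe sets higher in liver and 7858 in hypothalamus, and the deposited signals 2732 and 18255, with 1907 and 4921 shared with the ranks. A size of 10 points gave 8823 and 8228, one of 40 points 1111 and 2066, the regular arm alone 5805 and the nano arm alone 5795 higher in liver. Ranks above all genes of neither tissue, a limit added after seeing the data, left 1807 and 2682. With 20 points between the arms, 3308 probe sets differed. On the deposited signals the liver difference of Col1a1 turned to -0.0233, of Cd79b to -0.0255 and of Cel to -0.00829 log2 units. Ranks near 100 are compressed, and dim probe sets can change rank without expression.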

Other observations

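Genes called higher in liver often lay side by side. Of 1829 such genes placed on GRCm38.p6, 580 (31.7%) had a neighbouring gene that was also higher in liver, against 18.8% of all genes, and of 1903 higher in hypothalamus 533 (28.0%) had a neighbour higher in hypothalamus, against 19.7% of all. The longest runs were in liver: 9 genes on chromosome 19 from Cyp2c29 to Pdlim1, of which 8 are Cyp2c cytochromes, 8 Akr1c genes on chromosome 13, 7 glucuronosyltransferase genes from Ugt2b34 to Ugt2a3 on chromosome 5, and 6 Ces1 carboxylesterases on chromosome 8. Runs of plasma protein genes were shorter, as in the 5 genes from Alb to Rassf6, the 4 genes Lrat, Fgg, Fga and Fgb, the 4 apolipoprotein genes Apoa1, Apoc3, Apoa4 and Apoa5, and the 4 Saa genes. In hypothalamus the longest runs held 4 genes, of which there were 7, among them the adhesion molecule genes Cntn3, Chl1, Cntn6 and Cntn4 on chromosome 6 and a run with the sodium channels Scn1a, Scn9a and Scn7a on chromosome 2. Neighbouring family members are alike in sequence, and shared hybridisation was not tested.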
